A study of Mus musculus with 12 samples.

Results

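T-box transcription factors were represented here by 10 mouse genes, Tbx1, Tbx2, Tbx3, Tbx4, Tbx5, Tbx6, Tbx15, Tbx18, Tbx20 and Eomes. They were chosen by name, with the liver value of Tbx5 already known from these data. Every probe set annotated to 1 of them and to no other gene was taken. That gave 21 probe sets for the 10 genes, out of 34945 probe sets for 18193 genes that carry a single gene symbol. Tbx3 had 5 probe sets, Tbx20 had 3, and Tbx4, Tbx5, Tbx15, Tbx18 and Eomes had 2 each. Tbx1, Tbx2 and Tbx6 had 1 each. Probe sets of 1 gene share their target by annotation and are not independent of each other. Probe sequences were not examined, so where probe sets of a gene differ, which one reads its transcript better is not known here.

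T-box proteins bind DNA through a conserved domain, the T-box, and switch target genes on or off while an embryo lays down its germ layers, heart, limbs and somites. Most are active in narrow windows of place and time, and closely related members often sit side by side in the genome. In adult liver, Eomes is known from natural killer and T lymphocytes. Tbx3 is known from the embryonic liver bud, among other places, and Tbx5 from the heart, forelimb and lung. In pluripotent cells such as F9, Tbx3 is known as a factor of self-renewal and Eomes as a gene switched on at the exit towards mesoderm and endoderm.

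The study asked what follows the loss of selenophosphate synthetase 1 (SPS1, gene Sephs1). It measured 12 Affymetrix mouse arrays in 4 groups of 3. Livers came from C57BL/6 males at 3 months of age, 3 of them labelled as hepatocyte-specific SPS1 knockouts made with Alb-Cre, in which the albumin promoter drives the recombinase, and 3 as controls. Cells came from the F9 line, a male embryonal carcinoma line of strain 129 derived from a testicular teratoma, as 3 samples with an shRNA against SPS1 (shSPS1) and 3 controls. Whether the control livers carried Cre or floxed alleles, what the control F9 cells carried, and whether the shSPS1 cells were 1 clone are not given in the sources used here. No label ties the F9 samples to separate cultures, and the F9 p-values then cover no more than the spread among the samples at hand.

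All levels are log2 values as the authors deposited them, and a difference is treated minus control on that scale. Liver and F9 values lie in separately normalized tables and were not set against each other. Across probe sets, liver arrays of the same group had r = 0.933 to 0.939 and those of different groups 0.930 to 0.936. For F9 arrays r was 0.995 to 0.998 in the same group and 0.992 to 0.996 in different groups. In F9 the 4 Sephs1 probe sets were lower in shSPS1 cells by 0.93 to 2.20 (largest adjusted p = 0.00305, limma). In liver the same 4 probe sets differed by 0.19 to 0.47 with none lower in the livers labelled knockout (smallest adjusted p = 0.810, limma). The labels do not say which exons were deleted, and a probe set outside them checks nothing, so the liver groups are called by their labels. The hepatocyte marker list (Alb, Apoa1, Ttr, Cyp2e1, Cps1, Fgb) read 14.77 to 16.01 on the liver arrays, and the embryonal carcinoma list 4.08 to 15.22 on the F9 arrays. All 12 probe sets of these 6 hepatocyte marker genes had positive liver differences (median 0.33). Of them 11 were higher without overlap, beside 7.66% of all probe sets. None was called, and 2 had an unadjusted p under 0.05 (limma), as 6.54% of all did. The part of this shift in the liver values was not tested. In liver the spiked hybridisation controls were at 12.91 to 12.96 on the knockout and at 12.12 to 12.53 on the control arrays. In F9 the poly-A spike-ins read 5.89 to 6.91 on the shSPS1 and 7.11 to 7.58 on the control F9 arrays. The part of these controls in the results was not tested. The number of arrays limits the precision.

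Eomes is the member gene with a probe set that was higher without overlap between groups in both comparisons, as 1.06% of all probe sets were, so its promoter is shown. It spans 250 bases before to 50 bases after the annotated start, at chr9:118477939-118478238 on the + strand of GRCm38.p6, and the sequence is RefSeq's. Capitals mark the overlapping matches to the TATA box pattern TATANAN, 1 on each strand, which begin 31 and 30 bases before the start.
Eomes: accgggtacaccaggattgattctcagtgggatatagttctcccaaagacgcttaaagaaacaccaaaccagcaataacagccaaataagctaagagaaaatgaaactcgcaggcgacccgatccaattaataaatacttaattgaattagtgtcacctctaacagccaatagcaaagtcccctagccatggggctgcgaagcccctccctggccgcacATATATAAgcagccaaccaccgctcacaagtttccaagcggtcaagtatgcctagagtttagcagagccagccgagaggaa
Windows of this kind were on hand for 6 of the 10 genes, Tbx1 with 2 of them, and for none of Tbx2, Tbx3, Tbx5 and Tbx15. TATANAN, searched on both strands, was found in the windows of Eomes, Tbx4 and Tbx6 and in 24.61% of 32851 mouse promoter windows of the same 300 bases. The T-box core AGGTGTGA, which most family members bind, was found in 0 of the 6 genes' windows and in 1.28% of all windows. These letters are a description of the windows and no record of binding.

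In the livers labelled knockout, Tbx5 and Eomes stood above the control livers on 1 probe set each. Tbx5, a gene of heart and forelimb development, read 6.88, 7.33 and 6.94 in the 3 livers labelled knockout (probe set 1425695_at), against 3.997, 4.25 and 4.07 in the 3 control livers. The groups lie far apart and neither has an outlying liver. The difference was 2.94 (SE 0.19, 95% interval 2.47 to 3.42), a 7.69-fold difference of means of 7.05 ± 0.25 in knockout and 4.11 ± 0.13 in control livers (SD, n = 3 each). With limma's intensity trend and robust prior the SE of this difference was 0.46, so its precision depends on the fit. The values chose the family, so they carry no test here, and the interval does not allow for that choice. The probe set lay at percentile 33.3 of brightness among all probe sets over the 6 arrays.

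The other Tbx5 probe set, 1425694_at, was dimmer, at percentile 9.38. It read 3.59, 5.29 and 3.44 in knockout livers and 3.12, 2.28 and 3.87 in control livers. Here only knockout liver 2 exceeded every control, and the difference of 1.02 has a 95% interval of -0.61 to 2.65. With the mean of both probe sets the Tbx5 difference was 1.98. In tissue RNA, a change in the number of cells of a type and a change in RNA per cell cannot be told apart. That holds for every liver value here.

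Eomes, which encodes eomesodermin, read 4.90, 5.98 and 5.96 in knockout livers on probe set 1435172_at, against 2.58, 2.81 and 3.74 in control livers. All 3 knockout livers lie above all 3 controls, with more spread than for Tbx5. The difference was 2.57 (SE 0.45, 95% interval 1.45 to 3.69), with means of 5.61 ± 0.62 in knockout and 3.04 ± 0.61 in control livers (SD, n = 3 each). The other Eomes probe set, 1426001_at, did not show it: 3.41, 3.73 and 1.97 in knockout livers and 4.76, 2.84 and 3.60 in control livers. Those groups overlap, with a difference of -0.70 (95% interval -2.38 to 0.99). Both Eomes probe sets were dim in liver, at percentiles 16.9 and 7.58, and the mean of the 2 gave a difference of 0.94.

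**Figure D1:**
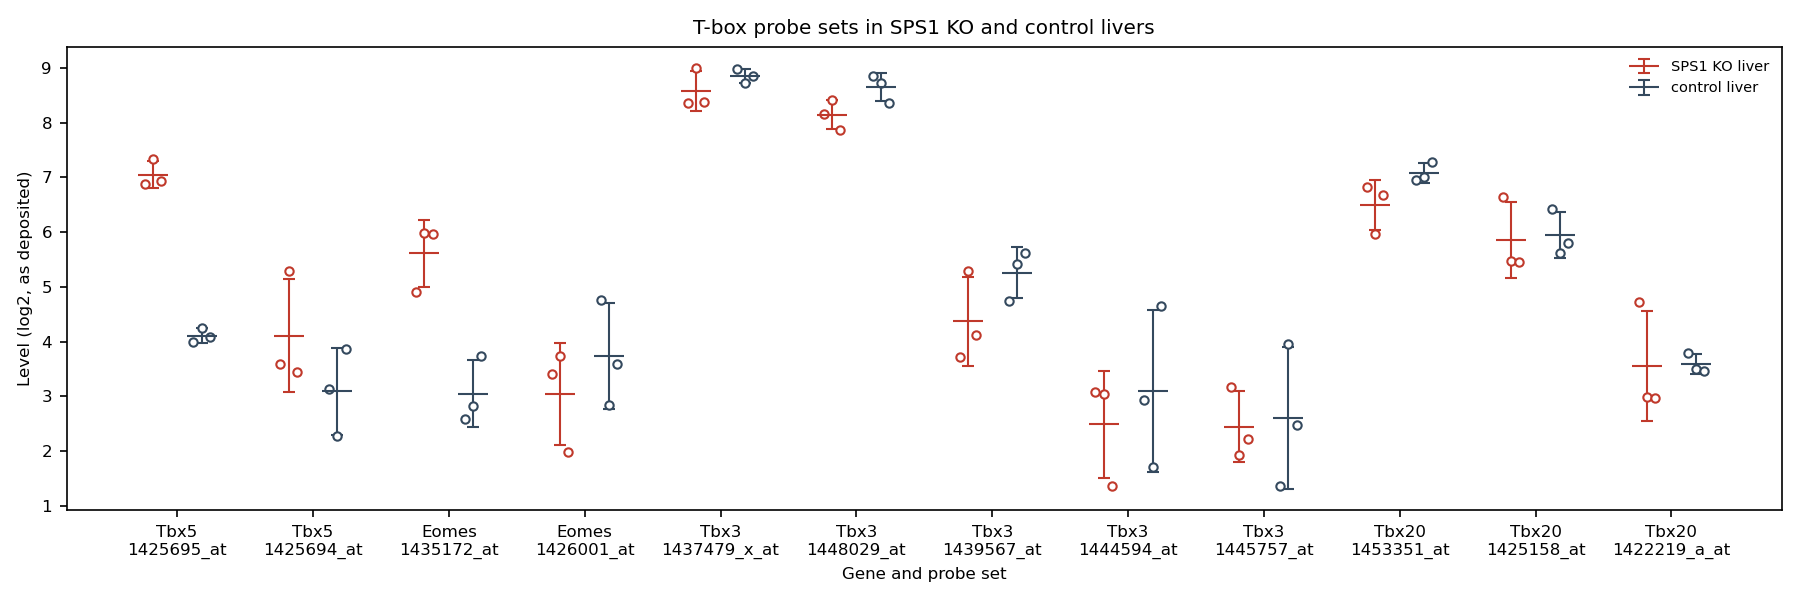
Log2 level, as deposited, of the Tbx5, Eomes, Tbx3 and Tbx20 probe sets on the 6 liver arrays, with livers labelled knockout (red) left of control livers (dark blue). Circles are livers, the long bar is the group mean and the whiskers are the SD (n = 3). Tbx5 1425695_at and Eomes 1435172_at have all 3 knockout livers above all 3 controls, and Tbx20 1453351_at has them below.

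Tbx3, a repressor that helps hepatoblasts grow in the embryonic liver, had the brightest probe sets of the family in liver, which is no ranking of transcript amounts between genes. Probe set 1437479_x_at, at percentile 72.8, read 8.36, 9.00 and 8.38 in knockout livers and 8.98, 8.72 and 8.85 in control livers. The groups overlap because knockout liver 2 read highest of all 6. Probe set 1448029_at read 8.16, 8.41 and 7.87 in knockout livers and 8.85, 8.73 and 8.36 in control livers, where the lowest control sat just below the highest knockout liver. Its difference was -0.50 (SE 0.23, 95% interval -1.06 to 0.06). All 5 Tbx3 probe sets had negative differences, of -0.89 to -0.16, and all 5 overlapped between groups. The shared sign rests on single livers for the dimmer probe sets: 1445757_at was 0.52 without control liver 2 and 0.10 without knockout liver 2, and 1444594_at was 0.17 without control liver 3.

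Tbx2, the repressor most like Tbx3, read 6.53, 6.41 and 4.10 in knockout livers and 6.70, 5.96 and 6.17 in control livers. Knockout liver 3 stood apart at the low end, and the difference was -0.60 (95% interval -2.37 to 1.17), or 0.19 without that liver. The same liver read lowest for Tbx1, a gene of the pharyngeal arches, at 3.90 beside 5.47 and 5.87 in the other knockout livers and 5.65, 6.08 and 5.85 in control livers. Without it the Tbx1 difference was -0.19, against -0.78 with it. It also read lowest for Tbx6, a gene of the paraxial mesoderm, at 5.16 beside 6.71 and 6.08, with 6.50, 6.04 and 6.29 in control livers, and the Tbx6 difference was -0.29 with it and 0.12 without it. Tbx15, a gene of skeleton and skin, read 4.04, 6.84 and 5.54 in knockout livers on its brighter probe set 1418755_at, and 6.12, 6.44 and 6.46 in control livers. The knockout livers spread on both sides of the controls, and the difference was -0.87 (95% interval -2.64 to 0.90). The other Tbx15 probe set, 1422195_s_at, read 4.82, 1.20 and 2.10 in knockout livers and 1.73, 2.63 and 3.35 in control livers. Those groups overlap, with a difference of 0.14 (SE 1.02).

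Tbx20, which acts in the developing heart chambers, was the gene with a probe set lower without overlap. Probe set 1453351_at read 6.82, 5.97 and 6.68 in knockout livers and 6.95, 7.004 and 7.29 in control livers. The nearest knockout and control livers differ by little, and the difference of -0.59 (SE 0.27) has a 95% interval of -1.28 to 0.10. Its other probe sets differed by -0.09 and -0.03. Tbx18, a gene of the sinus node and epicardium, differed by -0.62 and -0.70 on its 2 probe sets, and Tbx4, a gene of hindlimb and lung bud, by 0.03 and 0.83. The groups of both genes overlap on every probe set, and the SE of these 4 differences was 0.68 to 0.98.

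Over the 21 probe sets, 2 were higher in the livers labelled knockout without overlap, against 7.66% of all 34945, and 1 was lower, against 6.00% of all. Nothing is read from these shares, because the liver values chose the family. The members' median difference was -0.29 and 6 of 21 were positive (28.6%), while all probe sets had a median of 0.03 and 53.0% positive. The members varied more within liver groups than the array did, with a median SD of 0.92 against 0.39. Brightness was not matched in this comparison. In F9 the median SD was 0.106 for the members and 0.115 for all probe sets. Of the 21, 3 lay in the brighter 50% of probe sets in liver, namely 2 of Tbx3 and 1 of Tbx20.

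Markers of cell types in which T-box genes are known to act were read on the same liver arrays. Heart muscle markers (Myh6, Myh7, Tnnt2, Tnni3, Myl7, Myl2, Actc1) were positive on 8 of 10 probe sets, with a median difference of 0.86. Beside 0.0143% of all probe sets, 0 of these markers passed limma's adjusted p in either direction. Their summed level (log2 of the sum of linear values) was 8.46 to 9.62 in knockout livers and 7.77 to 8.20 in control livers, without overlap. Of the 10 probe sets, 3 were higher without overlap and 0 lower, beside 7.66% and 6.00% of all probe sets. The nearest to the threshold was Tnni3, cardiac troponin I, with 2.10, 2.605 and 1.90 in knockout livers and 0.98, 1.28 and 1.5 in control livers (adjusted p = 0.579, limma). Those readings were among the dimmest of the array, at percentile 0.532. Myl2, at percentile 34.0, read 6.02, 8.51 and 5.55 in knockout livers and 4.12, 5.41 and 4.16 in control livers (2.13, adjusted p = 0.767, limma). Tnnt2 differed by 1.65 on 1418726_a_at (adjusted p = 0.767, limma) and by 0.80 and 0.55 on its other probe sets, all with overlap. Myh6 differed by 0.92 without overlap on 1448826_at and by -1.79 with overlap on 1417729_at. The part of these markers in the Tbx5 values was not tested.

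Natural killer and T cell markers (Cd3e, Ncr1, Nkg7, Gzma, Gzmb, Prf1, Il2rb, Ccl5), the cells in which Eomes is known in adult tissue, were positive on 4 of 10 probe sets. Their summed level was 9.00 to 9.33 in knockout livers and 9.29 to 9.47 in control livers. The ranges overlap. Mesothelium markers were positive on 5 of 7 probe sets, with summed levels of 7.91 to 9.44 in knockout and 7.88 to 8.84 in control livers. Hepatic stellate cell markers were positive on 6 of 12, with 13.68 to 13.84 in knockout and 13.58 to 14.13 in control livers. None of these 3 lists had a probe set past the adjusted threshold, beside 0.0143% of all probe sets. An unadjusted p under 0.05 (limma) was found for 0 of their probe sets, beside 6.54% of all. The part of these lists in the Eomes values was not tested.

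The other T-box genes measured here were Tbr1, Tbx19, Tbx21, Tbx22 and Mga, with 10 probe sets. In liver limma called 0 of the 10 at an adjusted p under 0.05, where it called 5 of all 34945 (0.0143%), and 2 had an unadjusted p under 0.05, as 6.54% of all did. Tbr1, a gene of cortical neurons, read 5.79, 2.96 and 4.81 in knockout livers and 1.54, 1.94 and 3.31 in control livers, with overlap (2.25, adjusted p = 0.737). Tbx21, which encodes T-bet of T and natural killer cells, read 3.14, 3.70 and 1.94 in knockout livers and 4.66, 4.42 and 4.11 in control livers (-1.47, adjusted p = 0.686). All 3 knockout readings of Tbx21 lay below every control. Mga, which joins a T-box to a Max-binding domain, differed by -0.38 to 0.25 on 5 probe sets.

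The known surroundings of the family were then examined in liver: 11 partner proteins, targets of Tbx5, targets of Eomes, T and Tbx6, genes repressed by Tbx2 and Tbx3, and signals upstream. Of these 37 genes 35 were measured, on 58 probe sets. Limma called 0 higher and 0 lower, beside 0.0143% of all probe sets. Of the 58, 7 had an unadjusted p under 0.05 (6.54% of all probe sets had). The median difference was 0.05 beside 0.03 for all probe sets. Gata4, the zinc-finger partner of Tbx5 in the heart, read 5.47, 4.53 and 4.61 in knockout livers on 1418864_at, against 3.16, 2.52 and 3.50 in control livers. These groups do not overlap, yet the difference of 1.81 did not pass (adjusted p = 0.400, limma), and the other Gata4 probe set differed by -0.32. Wwtr1, which encodes the coactivator TAZ, differed by -0.62 on 1437155_a_at and -0.57 on 1417818_at without overlap (adjusted p = 0.598 and 0.666). On 1417817_a_at it differed by -0.27 with overlap (adjusted p = 0.880).

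Of the 9 probe sets for upstream signals, 3 had an unadjusted p under 0.05 in liver, beside the same 6.54% of all. Fgf8, a growth factor of limb and mesoderm, had 5.83, 5.60 and 5.08 in knockout livers and 1.66, 3.45 and 3.83 in control livers (2.52, adjusted p = 0.505, limma). Aldh1a2, which makes retinoic acid, had 6.75, 5.90 and 6.00 in knockout livers and 5.15, 4.93 and 5.57 in control livers (1.00, adjusted p = 0.657). Both were higher in every knockout liver, and neither passed. Shh, the hedgehog ligand of limb polarity, differed by 1.24 on 1 probe set and -1.24 on the other. Of the 5 probe sets of Tbx5 targets, 2 were positive and 3 negative, with a median of -0.07, and all overlapped between groups. Ryr2, the cardiac calcium release channel, differed by -0.86 and -0.33 on its probe sets (adjusted p = 0.887 and 0.957, limma). Nppa, atrial natriuretic peptide, and Gja5, connexin 40, differed by 0.26 and 0.19 (adjusted p = 0.914 and 0.917). Fgf10 differed by -0.07 (adjusted p = 0.981). Of the targets of Eomes, T and Tbx6, 7 of 12 probe sets were positive. Ripply2 differed by -2.18, Gsc by 0.87 and Sox17 by 0.30 and 0.08, with overlap (smallest adjusted p = 0.810, limma). Of the genes repressed by Tbx2 and Tbx3, Cdh1 differed by -0.61, Cdkn1a by 0.97 and -0.12 and Cdkn2a by 0.73. Those groups overlap too (smallest adjusted p = 0.819, limma).

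Tbx3 and Tbx5 lie close to each other in the GRCm38.p6 gene order, as do Tbx2 and Tbx4. The nearest measured genes around the first pair are Med13l, 4930413E15Rik and 1700081H04Rik before it and Rbm19, Lhx5 and Plbd2 after it. Their 10 probe sets were called 0 times in liver (smallest adjusted p = 0.712, limma), beside 0.0143% of all probe sets. Med13l, a Mediator kinase module gene, had 1 probe set at 4.76 in knockout and 6.38 in control livers on average, without overlap, while its brighter probe sets differed by -0.03 each. Rbm19, the nearest measured gene beyond Tbx5, differed by 0.08. Around Tbx2 and Tbx4, Ints2, an Integrator subunit gene, was higher without overlap on both probe sets, by 0.70 and 0.58 (adjusted p = 0.771 and 0.775). The genes beside Tbx5 had no probe set that was higher without overlap in the livers labelled knockout.

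By a rule that ranks probe sets of the brighter 50% by Pearson correlation with Tbx5 1425695_at over the 6 liver arrays, the nearest 5 genes were Yrdc, Plekha1, Fbxo31, Gstm2 and Rapgef6 (r = 0.988 to 0.995). All 5 were higher in knockout livers without overlap, by 0.37 to 1.05. The points share 6 arrays, and such a ranking picks genes that separate the same groups.

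In F9 cells, 1 of the 21 T-box probe sets passed, Eomes 1426001_at, which was higher in shSPS1 cells. Limma called 1600 of all 34945 probe sets (4.58%), 657 of them higher (1.88%) and 943 lower (2.70%), so 1 call in 21 is close to the share of the whole array. Eomes 1426001_at read 9.03, 8.96 and 8.82 in shSPS1 cells and 8.56, 8.61 and 8.55 in control cells. The 3 controls lie close together and the lowest shSPS1 sample is above them. The difference was 0.36 (SE 0.08, 95% interval 0.18 to 0.54), a 1.29-fold change, with an adjusted p of 0.0418 by limma. The means were 8.93 ± 0.11 in shSPS1 and 8.57 ± 0.03 in control cells (SD, n = 3 each). The call is narrow: it was lost without any 1 of the 6 arrays (differences of 0.32 to 0.42, adjusted p = 0.0527 to 0.166).

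The other Eomes probe set, 1435172_at, read 8.48, 8.27 and 8.24 in shSPS1 cells and 8.03, 8.11 and 8.01 in control cells. Here too every shSPS1 sample was above every control, and the difference of 0.28 did not pass (SE 0.09, adjusted p = 0.134, limma). Both Eomes probe sets were in the brighter 50% in F9, at percentiles 79.9 and 74.7. The probe set that passed in F9 is the one whose groups overlap in liver, and the one that separated the livers did not pass in F9.

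Tbx3, with the brightest member probe sets in F9, was positive on all 5, by 0.18 to 0.31. Probe set 1448029_at read 11.01, 11.04 and 10.96 in shSPS1 cells and 10.87, 10.62 and 10.76 in control cells (0.25, SE 0.08, adjusted p = 0.153, limma). Probe set 1437479_x_at read 10.43, 10.38 and 10.51 in shSPS1 cells and 10.25, 10.14 and 10.24 in control cells (0.22, SE 0.07, adjusted p = 0.152). Probe set 1445757_at read 6.76, 6.53 and 6.76 in shSPS1 cells and 6.35, 6.38 and 6.40 in control cells (0.31, SE 0.08, adjusted p = 0.0883). On these 3 probe sets every shSPS1 sample lies above every control, and none passed. The dimmer 1439567_at and 1444594_at differed by 0.26 and 0.18 with overlap (adjusted p = 0.438 and 0.349).

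**Figure D2:**
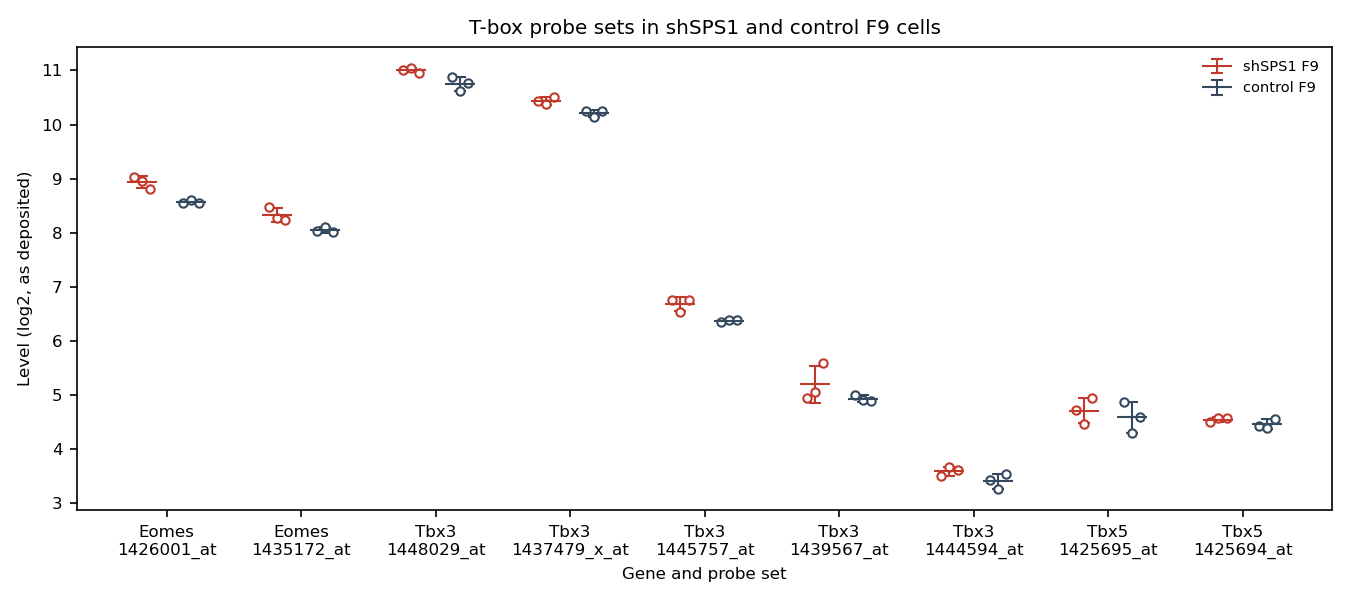
Log2 level, as deposited, of the Eomes, Tbx3 and Tbx5 probe sets on the 6 F9 arrays, with shSPS1 cells (red) left of control cells (dark blue). Circles are samples, the long bar is the group mean and the whiskers are the SD (n = 3). Both Eomes and the 3 brighter Tbx3 probe sets have all shSPS1 samples above all controls, and the 4 dimmer probe sets overlap between 3.26 and 5.59.

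Tbx5, the member with the largest liver difference, was dim and overlapping in F9. Probe set 1425695_at read 4.73, 4.47 and 4.94 in shSPS1 cells and 4.87, 4.30 and 4.59 in control cells. The highest control lies between the shSPS1 samples, and the difference of 0.13 had a 95% interval of -0.25 to 0.51 (adjusted p = 0.763, limma). Its other probe set differed by 0.09 (95% interval -0.09 to 0.26). Tbx1 read 3.76, 3.78 and 3.79 in shSPS1 cells and 3.80, 3.41 and 3.39 in control cells, where 1 control was as high as the shSPS1 samples (0.24, adjusted p = 0.323).

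Among the remaining members, Tbx2 differed by 0.11 and Tbx6 by -0.06. Tbx4 differed by 0.17 on 1456033_at and by -0.0006 on 1426321_at. Tbx15 differed by -0.03 and 0.07, Tbx18 by 0.17 and 0.03, and the 3 Tbx20 probe sets by -0.10, -0.09 and -0.05. All 11 of these probe sets overlap between groups, and none passed (smallest adjusted p = 0.568, limma).

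Over the 21 F9 probe sets, 5 were higher in shSPS1 cells without overlap and 0 were lower, against 12.2% and 12.8% of all probe sets. The 5 are 2 of Eomes and 3 of Tbx3, and they are also the 5 member probe sets in the brighter 50%. The same 5 had an unadjusted p under 0.05, which 18.2% of all probe sets had. The median member difference was 0.13 and 15 of 21 were positive (71.4%), beside a median of -0.0014 and 49.6% for all probe sets. Of these 15, 7 belong to Tbx3 and Eomes. Eomes 1435172_at was the 1 member probe set higher without overlap in both comparisons, 0 were lower in both, and 0 were opposite, against 1.06%, 1.09% and 1.64% of all probe sets.

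**Figure D3:**
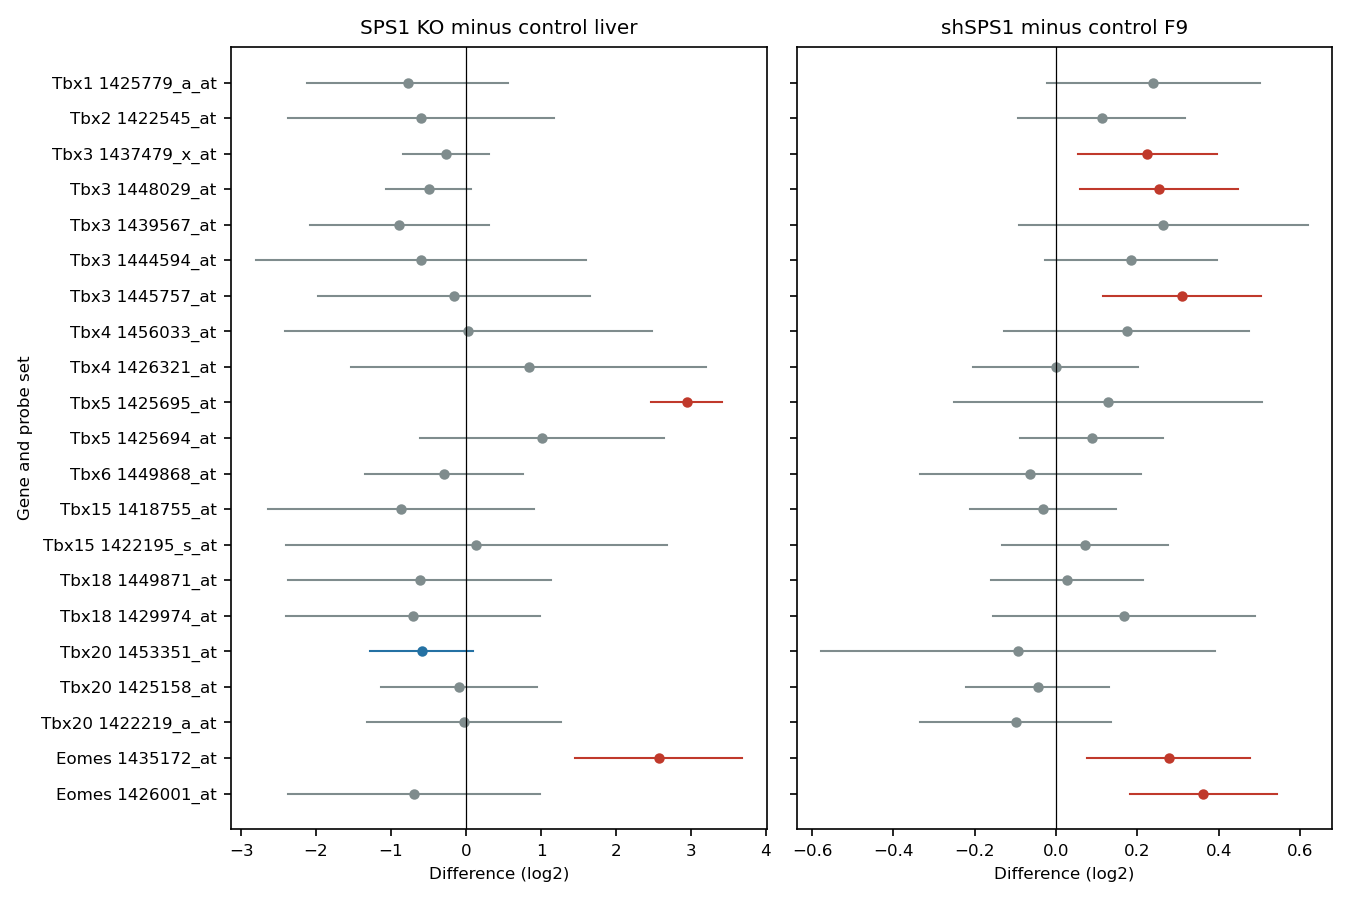
Difference (log2) of each T-box probe set, livers labelled knockout minus control livers on the left and shSPS1 minus control F9 cells on the right, with lines for the 95% interval and a separate axis range for each panel. Red points have groups that do not overlap and are higher, blue points lower, and grey points overlap. Liver intervals are wide, with Tbx5 at 2.94 and Eomes at 2.57, while all F9 differences lie between -0.10 and 0.36.

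Other T-box genes in F9 gave 0 calls on 10 probe sets, beside 4.58% of all probe sets called. Of the 10, 1 had an unadjusted p under 0.05, beside 18.2% of all. That was Mga on 1422646_at, at 7.42, 7.58 and 7.45 in shSPS1 cells and 7.24, 7.18 and 7.41 in control cells (0.20, adjusted p = 0.269, limma). The groups meet closely without crossing. A further Mga probe set differed by 0.24 and the brightest by -0.09, so the probe sets of this gene did not share a direction.

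Of the 58 probe sets of partners, targets and signals, limma called 3 in F9, all lower in shSPS1 cells, and 15 had an unadjusted p under 0.05. Of all probe sets 4.58% were called and 18.2% had an unadjusted p under 0.05, so the list had about the array's share of calls, and the 3 are given as single genes. Their median difference was 0.03 beside -0.0014 for all probe sets, with 31 positive and 27 negative. Smarcd3, the BAF chromatin remodelling subunit that works with Tbx5 and Gata4 in the heart, fell most. It read 5.96, 6.05 and 6.08 in shSPS1 cells and 7.28, 7.15 and 7.10 in control cells. The groups are more than 1 unit apart, and the difference was -1.15 (SE 0.08, adjusted p = 0.000305, limma), a 2.22-fold change that passed under every alternative.

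Wwtr1 was positive in F9 on all 3 probe sets, and none passed (0.10 to 0.20, smallest adjusted p = 0.163, limma). Smad3, the Nodal and activin signal transducer that binds beside Eomes, read 7.54, 7.61 and 7.57 in shSPS1 cells on 1454960_at and 7.94, 7.93 and 7.95 in control cells. Both groups are tight and separate, and its difference was -0.36 (SE 0.07, adjusted p = 0.0216, limma). Its other probe sets differed by -0.27 and -0.09 and did not pass, and the mean of its probe sets gave -0.24 (adjusted p = 0.132). The 1454960_at call was also lost when any 1 array other than that of control sample 1 was left out (adjusted p = 0.0765 to 0.0881).

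Cdh1, E-cadherin, which Tbx2 and Tbx3 are known to repress, read 11.41, 11.34 and 11.30 in shSPS1 cells and 11.81, 12.21 and 12.19 in control cells. Every shSPS1 sample was below every control, with a difference of -0.72 (SE 0.11, adjusted p = 0.0116, limma). The call was lost without shSPS1 sample 2 or 3 (adjusted p = 0.0704 and 0.0528). Cdkn1a and Cdkn2a, cell cycle inhibitors from the same list of repressed genes, did not pass. Cdkn2a differed by 0.40 with overlap (adjusted p = 0.184) and Cdkn1a by 0.07 and -0.05.

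**Figure D4:**
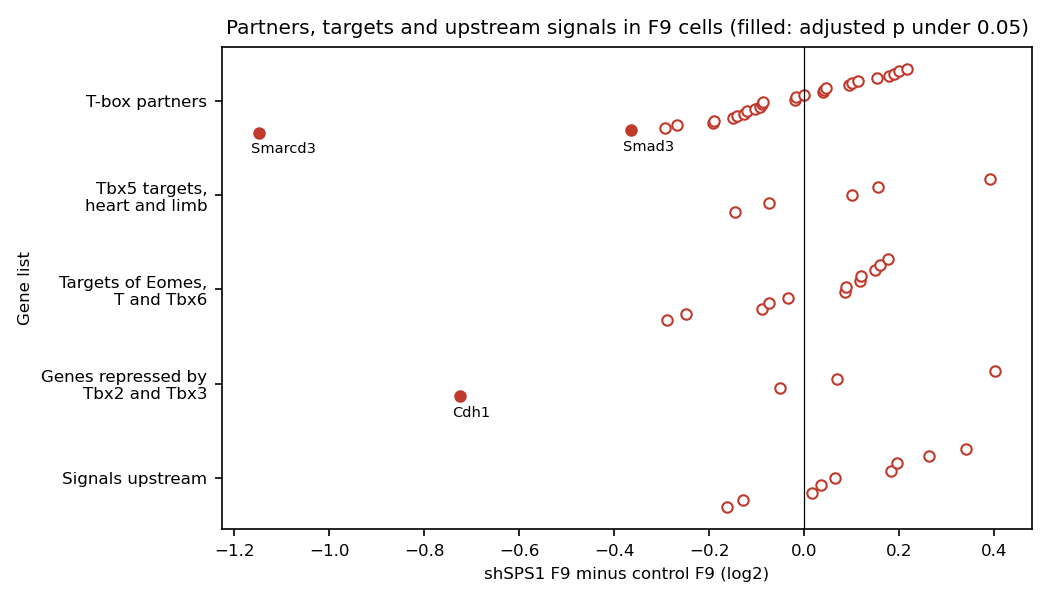
Difference (log2) between shSPS1 and control F9 cells for each of the 58 probe sets of T-box partners, targets and upstream signals, by list. Filled points passed an adjusted p under 0.05 and are named, and they are Smarcd3 at -1.15, Smad3 at -0.36 and Cdh1 at -0.72.

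Nodal, the ligand upstream of Eomes in the early embryo, was higher in every shSPS1 sample on both probe sets without passing. It read 8.09, 8.34 and 8.34 in shSPS1 cells and 7.94, 7.93 and 7.89 in control cells on 1422057_at (0.34, adjusted p = 0.0734, limma). On 1422058_at it read 10.50, 10.52 and 10.58 in shSPS1 cells and 10.33, 10.20 and 10.28 in control cells (0.26, adjusted p = 0.0887). Bmp4, a signal of mesoderm and germ cells, differed by 0.18 (adjusted p = 0.213). None of the 9 probe sets of the upstream signals passed.

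None of the 12 probe sets for targets of Eomes, T and Tbx6 passed. Mixl1, a homeobox gene of the primitive streak, read 4.32, 4.25 and 4.33 in shSPS1 cells and 4.66, 4.54 and 4.44 in control cells (-0.25, adjusted p = 0.141, limma). Mesp2, a gene of somite boundaries, differed by -0.29 without overlap (adjusted p = 0.177). The list as a whole had 7 positive and 5 negative differences, with a median of 0.09. Among the Tbx5 targets, Ryr2, the cardiac calcium release channel, differed by 0.39 on 1 probe set (adjusted p = 0.118) and by -0.07 on the other.

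Extraembryonic endoderm is the fate F9 cells are best known to take, and its markers were read beside these genes. Of 22 probe sets, limma called 2 higher, both of Sox7, and 1 lower, of Sparc, and 8 had an unadjusted p under 0.05, beside 4.58% called and 18.2% at an unadjusted p under 0.05 over the array. Sox7 1416564_at, a regulator of parietal endoderm, read 9.35, 9.52 and 9.51 in shSPS1 cells and 8.69, 8.80 and 8.75 in control cells (0.71, adjusted p = 0.00255). Sparc 1448392_at, a basement membrane protein gene, differed by -0.47 (adjusted p = 0.0221), while its brighter probe set differed by -0.08. The remaining 5 at an unadjusted p under 0.05 were lower without overlap and were not called, namely 3 probe sets of Lamb1, a laminin chain gene (-0.52 to -0.28), and 2 of Col4a1, a basement membrane collagen gene (-0.29 and -0.22). The summed level of the list was 12.10 to 12.21 in shSPS1 and 12.25 to 12.28 in control cells. The part of this list in the Eomes values was not tested. Embryonal carcinoma markers gave 0 calls on 13 probe sets and 0 at an unadjusted p under 0.05.

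The genes around Tbx3 and Tbx5 and around Tbx2 and Tbx4 gave 0 calls in F9 (smallest adjusted p = 0.211, limma, for Ints2). Of all probe sets 4.58% were called. Over the 10 probe sets around Tbx3 and Tbx5 the differences ran from -0.19 (Med13l) to 0.10 (Lhx5), in both directions. By the same likeness rule as in liver, the 5 genes nearest to Eomes 1426001_at over the 6 F9 arrays were Phyh, Foxo3, Bsdc1, Ppp2r5c and Akap2 (r = 0.992 to 0.993). Each was higher in shSPS1 cells without overlap, by 0.16 to 0.60. They share the 6 arrays and the group difference with Eomes.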

How the data were processed

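RNA of 6 livers and 6 F9 samples was hybridised to Affymetrix mouse arrays of 45101 probe sets. The log2 values were deposited by the authors as 1 table per tissue, and they equal those in a table of all 12 arrays (largest difference 0). R 3.0.1 and affy 1.38.1 are named per the submitters' processing notes, without roles. The background correction, summary and normalization are not given in the sources used here. Detection calls were not used here.

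Of the 45101 probe sets, 932 with several gene symbols, 9211 with none and the 64 Affymetrix controls, which overlap with these, were left out, which left 34945. Of these, 34741 matched the GRCm38.p6 gene table by Entrez identifier. Each tissue was fitted on its own 6 arrays by limma (version 3.58.1, R 4.3.3), using lmFit, then eBayes, two-sided and without a filter. Each probe set was tested by itself and called where its p, adjusted by Benjamini-Hochberg over all 34945, was under 0.05. Liver differences of members carry no p. The fit was tested on simulated data.

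Members, lists and tests were chosen with earlier results of these data known. Named were all members, all other T-box genes and up to 3 probe sets of a list with the smallest p. Also named were the nearest 3 measured genes on each side of Tbx3 with Tbx5 and of Tbx2 with Tbx4. Last came the 5 genes with the highest Pearson correlation. Those were ranked against the brightest Tbx5 probe set in liver and the member with the largest F9 difference, among the brighter 50% of probe sets. Further probe sets of a named gene are given beside it. Some lists, such as the natural killer and T cell markers, are given by counts and summed levels without values of single probe sets. T and Tbx10 were not analysed here. The alternatives tried were leaving out each array, a replicate block, quantile normalization, median centring, leaving out the dimmest 50%, an intensity trend with a robust prior, and the brightest or the mean probe set per gene. Promoter windows are RefSeq's.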

Additional observations from a re-analysis of the deposited data

How the results depend on the processing

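The numbers that the labels give do not pair the samples: same-numbered arrays correlated at -0.042, 0.007 and 0.003 in their deviations from the group means in liver, and at -0.223, 0.002 and -0.132 in F9. With the replicate block, limma called 0 probe sets in liver (5 without it), 647 in F9 (1600), 0 of the members (1), and 2 of the partners, targets and signals (3), where Smad3 1454960_at had an adjusted p of 0.0981. In liver, median centring gave 0 calls, leaving out the dimmest 50% gave 55, the intensity trend 100, the brightest probe set per gene 8, the mean per gene 2, and leaving out an array 0 to 0. Tbx5 in liver was 1.98 with both probe sets averaged and 2.80 to 3.03 without an array. In F9, leaving out the dimmest 50% gave 2480 calls, 2 of them members and 5 of them partners, targets or signals. The intensity trend gave 2501, 3 and 6. Without an array the ranges were 518 to 1804, 0 to 1 and 1 to 4. The members added were Tbx3 1445757_at with the dimmest 50% left out, Tbx3 1448029_at and 1437479_x_at with the trend, and Tbx1 without control sample 1. Eomes 1426001_at had an adjusted p of 0.117 with the block and 0.0125 with the trend. Signs turned for dim F9 members near 0: Tbx4 1426321_at was 0.00091 after quantile normalization, 0.087 with its probe sets averaged and -0.072 to 0.056 without an array. Tbx15 1418755_at was 0.0195 when averaged and -0.072 to 0.019 without an array. Without an array Tbx5 1425695_at ranged from -0.018 to 0.27, Tbx6 from -0.16 to 0.066, Tbx18 1449871_at from -0.021 to 0.089 and Tbx20 1453351_at from -0.27 to 0.18. In liver, signs turned without an array for 8 member probe sets, Tbx2 (-1.02 to 0.19), Tbx6 (-0.66 to 0.12), Tbx3 1445757_at (-0.78 to 0.52) and 1444594_at (-1.30 to 0.17), Tbx4 1456033_at (-0.55 to 0.89), Tbx15 1422195_s_at (-0.92 to 0.89) and the dimmer Tbx20 probe sets 1425158_at (-0.49 to 0.15) and 1422219_a_at (-0.61 to 0.26). Tbx4 1456033_at was also -0.076 after quantile normalization. The causes were not tested. Scaling moved the median of all probe sets by less than 0.1. Dim probe sets and 3 arrays a group limit the liver values.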
